A study of Mus musculus with 15 samples.

Results

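Complement genes were followed in bulk RNA-seq of dystrophic mouse muscle. The 9 genes were taken by name as C1qa, C1qb, C1qc, C1ra, C1s1, C2, C3, C4b and C3ar1, and make up 9 of the 56980 genes in the table. All 15 libraries came from DBA/2J-mdx mice, which lack dystrophin, so no library of healthy muscle entered any comparison. Tibialis anterior (TA) libraries came from mice given vehicle (n = 4) or the senolytic pair dasatinib and quercetin (D+Q, n = 4) 2 times per week from 3 to 5 months of age. Heart libraries came from mice given vehicle (n = 4) or D+Q (n = 3) 2 times per week from 12 to 16 months of age. Tissue, age at collection (5 or 16 months) and length of treatment (2 or 4 months) therefore cannot be told apart between TA and heart. Labelled males numbered 2 of 4 in vehicle TA, 4 of 4 in D+Q TA, 2 of 4 in vehicle heart and 1 of 3 in D+Q heart. The question was whether these genes differed with D+Q in each tissue, and how TA and heart differed from each other.

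Complement is a cascade of plasma and tissue proteins that tags cells, debris and microbes for removal and calls in leukocytes. In the classical pathway C1q recognises the target, C1r and C1s cleave C4 and C2, and the resulting convertase splits C3 into the C3b tag and the C3a peptide, which acts through the receptor C3ar1. The liver supplies most plasma complement, while macrophages are known for making C1q and fibroblasts for making C1r, C1s, C3 and C4. In dystrophic muscle, repeated fibre damage brings macrophages and fibroblasts into the tissue. DBA/2J mice also carry a loss-of-function allele of Hc, the gene of C5.

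Values are TPM, which corrects for transcript length and sums to the same total in each library, so levels may be set side by side between genes. TPM carries no read depth, so the depth behind each value is unknown. Genes above 0 numbered 22579 to 22818 in D+Q hearts and 24089 to 25378 in vehicle hearts, without overlap. In TA they numbered 24146, 22166, 21830 and 23691 with D+Q, and 23956 to 24393 with vehicle. The part of this difference in the values of the 9 genes was not tested. A gene was called when limma gave a Benjamini-Hochberg adjusted p under 0.05 together with a log2 fold change beyond 0.5 in either direction, on the log2(TPM + 0.5) scale. In whole tissue, fewer cells of a type and less RNA per cell cannot be told apart. Markers of the labelled tissue were as labelled, with 9 of 9 skeletal muscle genes called higher in vehicle TA and 8 of 8 heart muscle genes called higher in vehicle heart. D+Q heart replicate 2 held Tnnt3 at 21.5 and Myh4 at 10.2 TPM, against at most 0.882 and 0.0396 TPM in vehicle hearts. Myh1, Myh2, Tnni2, Pvalb and Actn3 were also higher in it than in every other heart. Acta1 and Ckm were not, at 303.7 and 1207.4 TPM. Vehicle hearts already held these 2 at 286.4 to 644.3 and 1042 to 1150 TPM. The part of these transcripts in the values of the 9 genes was not tested. D+Q heart replicate 3 is labelled male, but it held Xist at 47.2 TPM and at most 0.0279 TPM of each of 4 Y-linked genes. The other 14 libraries matched their labelled sex, and the D+Q effects of the 9 genes in heart are given with and without this library. The 9 atrial muscle genes summed to 607.9 to 660.3 TPM in D+Q hearts and to 1086 to 4709 TPM in vehicle hearts. Myl7, which defines atrial muscle, was at 3.46 to 4.54 TPM in D+Q hearts and at 94.1 to 730 TPM in vehicle hearts.

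All 9 genes passed the filter on low values in both tissues. In vehicle TA the order of mean TPM was C1qb, C3, C1qc, C1qa, C1s1, C1ra, C4b, C3ar1 and C2, from 45.1 ± 11 down to 2.94 ± 0.746 (SD, n = 4). The first 5 of these overlapped each other in single libraries. C1s1 lay above C1ra, and C3ar1 above C2, in all 4 libraries. In vehicle heart C3 stood alone at the top with 131 ± 36.3 TPM (SD, n = 4), above every other member in all 4 libraries. C1qc, C4b, C1qa and C1qb followed within 36.9 to 35.7 TPM and overlapped. C1s1, C1ra, C3ar1 and C2 came last. C3 was at the 97.1 percentile of genes above 0.5 TPM in vehicle heart and at the 89.2 percentile in vehicle TA. The 7 hepatocyte markers, which mark the main source of plasma complement, summed to at most 8.69 TPM in any library.

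**Figure D1:**
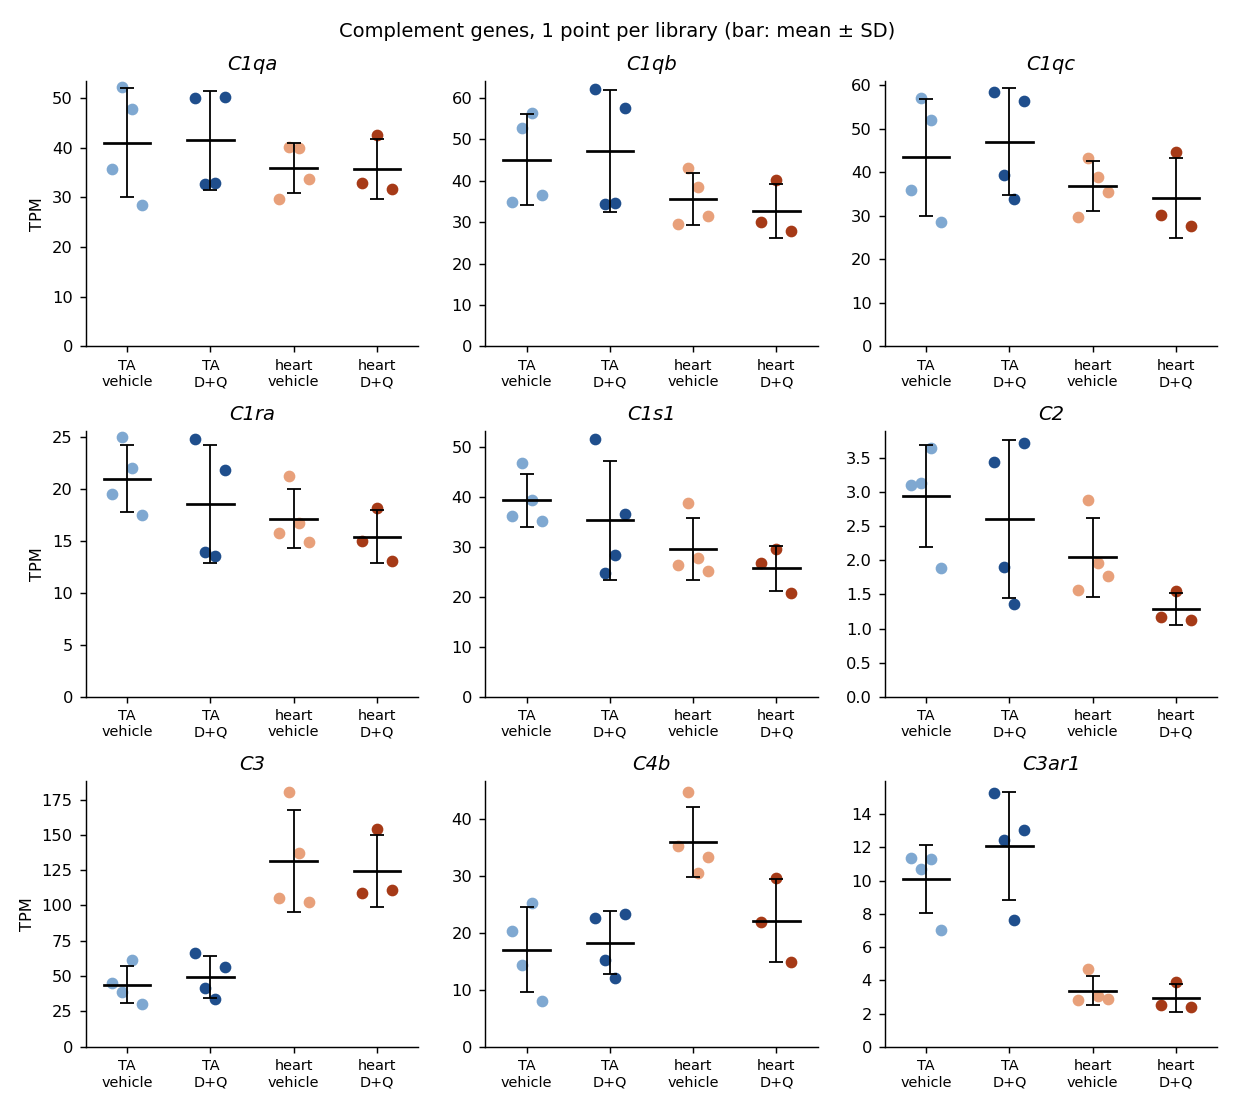
TPM of each complement gene in the 4 groups, 1 point per library, with a black bar at the mean and an error bar of 1 SD (TA vehicle, TA D+Q and heart vehicle n = 4, heart D+Q n = 3). C3 is higher in every heart library than in every TA library, C3ar1 is lower in every heart library, and C4b and C2 in heart are lower in all 3 D+Q libraries than in all 4 vehicle libraries.

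Promoter sequences are shown for the pair of C1q genes with an entry, since the ratios between C1q chains varied less than the chains did, and for C3, which was called between the tissues in both vehicle and D+Q animals. These traits were not particular to them. C1s1 divided by C1ra varied by 8.8% against 26.4% for C1s1, and C3ar1 was also called in both, but their windows are not printed. The windows run from 250 bases before to 50 bases after the transcript start and come from RefSeq on GRCm38.p6, for 6 of the 9 genes: C1qb, C1qc, C1ra, C1s1 (2 windows), C3 and C3ar1. The others, C1qa, C2 and C4b, had no entry. Capitals mark exact matches on either strand to 2 of the 4 motifs searched.
C1qb, chr4:136886151-136886450, minus strand: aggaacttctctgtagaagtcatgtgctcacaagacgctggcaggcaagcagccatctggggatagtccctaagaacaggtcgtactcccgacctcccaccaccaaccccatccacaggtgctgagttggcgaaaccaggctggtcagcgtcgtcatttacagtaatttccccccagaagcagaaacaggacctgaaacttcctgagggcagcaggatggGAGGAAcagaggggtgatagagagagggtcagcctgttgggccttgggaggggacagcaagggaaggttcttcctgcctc
C1qc, chr4:136892865-136893164, minus strand: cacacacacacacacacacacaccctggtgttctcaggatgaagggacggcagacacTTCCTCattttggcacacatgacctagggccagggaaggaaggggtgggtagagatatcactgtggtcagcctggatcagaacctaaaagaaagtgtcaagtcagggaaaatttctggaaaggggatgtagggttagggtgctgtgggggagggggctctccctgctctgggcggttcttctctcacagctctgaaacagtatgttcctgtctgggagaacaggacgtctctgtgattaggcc
C3, chr17:57228087-57228386, minus strand: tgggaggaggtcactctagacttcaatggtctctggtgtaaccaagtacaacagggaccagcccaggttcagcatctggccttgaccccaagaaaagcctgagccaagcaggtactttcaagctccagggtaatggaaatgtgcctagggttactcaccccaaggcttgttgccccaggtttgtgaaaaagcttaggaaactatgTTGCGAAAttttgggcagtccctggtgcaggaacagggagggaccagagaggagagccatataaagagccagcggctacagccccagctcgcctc
GAGGAA, a core bound by the macrophage factor PU.1 and other ETS factors, was present in C1qb at position -30 from the transcript start and in C1qc at position -193, on the other strand as TTCCTC. The same letters TTCCTC were present in C1ra at position 44, which puts the motif in 3 of the 7 windows of the complement genes, against 28.3% of all 32851 promoters. TTGCGNAA, a C/EBP core, was present only in C3 as TTGCGAAA, at position -45, and in 0.798% of all promoters. TTCNNNGAA, a STAT core, was present in C1ra alone of these windows and in 8.3% of all promoters. The interferon response motif was in 0 of the 7 windows and in 3.44% of all promoters. The windows of C1s1 and C3ar1 held no match to any motif searched. Each match describes letters in a window and is not a site of binding.

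C1q is built from 3 chains encoded next to each other on chromosome 4 (GRCm39, minus strand): C1qa (ENSMUSG00000036887, chr4:136623223-136626161), C1qb (ENSMUSG00000036905, chr4:136606009-136613511) and C1qc (ENSMUSG00000036896, chr4:136616466-136620376). In TA none of the 3 genes was called with D+Q. C1qa was at 35.6, 52.2, 47.7 and 28.5 TPM in vehicle TA and at 49.96, 32.7, 32.9 and 50.2 TPM in D+Q TA. The groups overlapped fully, with high and low libraries in both. C1qa had a log2 fold change of -0.10 (95% interval -0.50 to 0.29, limma adjusted p = 0.999). C1qb ranged from 34.8 to 56.3 TPM in vehicle TA and from 34.3 to 62.3 TPM in D+Q TA. C1qc ranged from 28.6 to 57.1 TPM in vehicle TA and from 33.9 to 58.5 TPM in D+Q TA. Their log2 fold changes were -0.12 (interval -0.48 to 0.25) and -0.02 (interval -0.44 to 0.40).

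In heart none of the C1q genes was called with D+Q either. C1qa was at 29.7, 40.0, 40.0 and 33.7 TPM in vehicle hearts and at 32.8, 42.6 and 31.7 TPM in D+Q hearts, a log2 fold change of -0.06 (95% interval -0.29 to 0.18, limma adjusted p = 0.813). C1qb was at 29.6, 43.0, 38.5 and 31.6 TPM with vehicle and at 30.1, 40.2 and 27.8 TPM with D+Q. C1qc was at 29.7, 43.3, 38.9 and 35.5 TPM with vehicle and at 30.1, 44.6 and 27.7 TPM with D+Q. D+Q replicate 2 was the highest and replicate 3 the lowest of its group for all 3 genes. The log2 fold change was -0.19 for C1qb (interval -0.44 to 0.06) and -0.19 for C1qc (interval -0.51 to 0.14). Between the tissues, vehicle TA exceeded vehicle heart by 0.16 for C1qa, 0.32 for C1qb and 0.19 for C1qc on the log2 scale, with limma adjusted p-values of 0.542, 0.266 and 0.535.

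The ratios between the 3 chains varied less over the libraries than the chains did. C1qa divided by C1qc lay between 0.83 and 1.15 over all 15 libraries, with a coefficient of variation of 8.64%, while C1qa itself varied by 20.9%. C1qa divided by C1qb lay between 0.78 and 1.14 (coefficient of variation 11.1%), and C1qb divided by C1qc between 0.871 and 1.28 (9.81%, against 27.6% for C1qb itself). Pearson correlations of log2(TPM + 0.5) between pairs of the chains were 0.911 to 0.976 over the 8 TA libraries and 0.937 to 0.963 over the 7 heart libraries. The other 33 pairs of complement genes ran from 0.377 to 0.944 in TA and from 0.393 to 0.975 in heart. The points of each correlation share their library and, in part, their group.

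**Figure D2:**
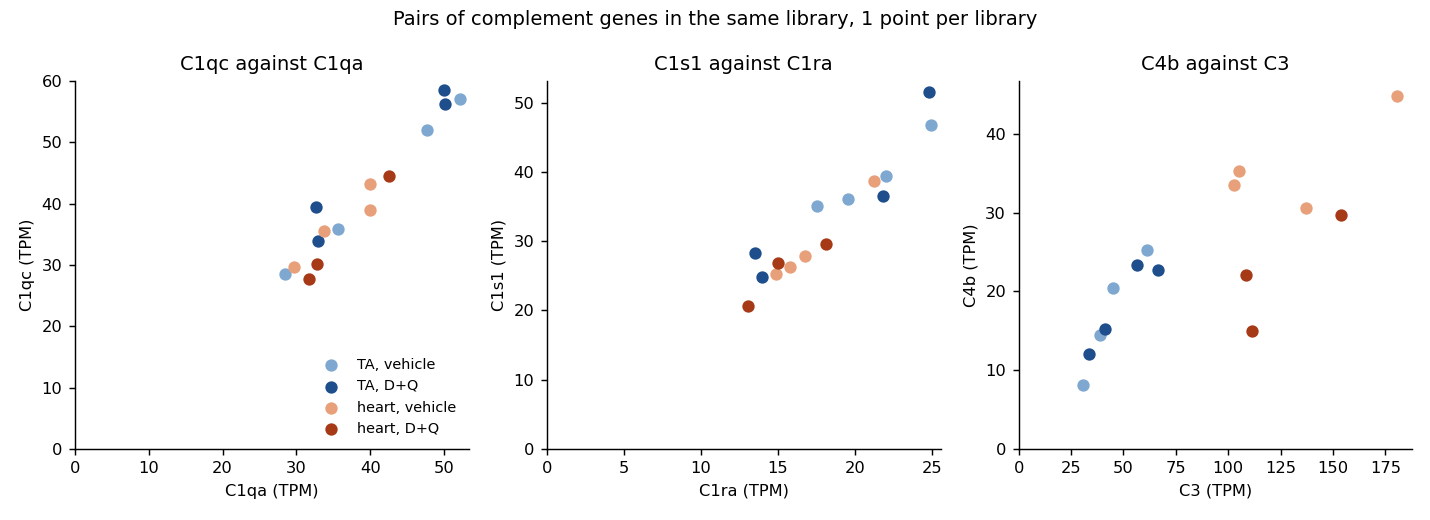
TPM of C1qc against C1qa, C1s1 against C1ra and C4b against C3, 1 point per library, coloured by group, with all axes starting at 0. C1qa and C1qc rise together in all groups, C1s1 is 1.58 to 2.09 times C1ra, and in the panel of C4b against C3 the D+Q hearts lie below vehicle hearts of like C3.

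C1ra (ENSMUSG00000055172, chr6:124489364-124500402, plus strand) and C1s1 (ENSMUSG00000038521, chr6:124507297-124559389, minus strand) encode the proteases that C1q carries. Neither was called with D+Q in either tissue. In TA, C1ra was at 19.5, 25.0, 22.0 and 17.5 TPM with vehicle and at 24.9, 14.0, 13.5 and 21.9 TPM with D+Q. C1s1 was at 36.1, 46.8, 39.4 and 35.1 TPM with vehicle and at 51.6, 24.8, 28.2 and 36.5 TPM with D+Q. D+Q replicates 2 and 3 lay below every vehicle library for both genes, while D+Q replicate 1 lay near the top. Those replicates 2 and 3 also held the fewest genes above 0 of all TA libraries. The log2 fold change was -0.35 for C1ra (95% interval -0.70 to 0.00475) and -0.33 for C1s1 (interval -0.70 to 0.04), both with a limma adjusted p of 0.999.

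In heart, C1ra was at 15.8, 21.3, 16.7 and 14.9 TPM with vehicle and at 14.99, 18.1 and 13.1 TPM with D+Q, and the groups overlapped. C1s1 was at 26.3, 38.7, 27.8 and 25.2 TPM with vehicle and at 26.8, 29.5 and 20.7 TPM with D+Q, and these groups overlapped too. The log2 fold changes were -0.20 for C1ra (interval -0.45 to 0.05, limma adjusted p = 0.373) and -0.25 for C1s1 (interval -0.52 to 0.01, limma adjusted p = 0.305). C1s1 stayed 1.58 to 2.09 times as high as C1ra across the 15 libraries, and the correlation between them was 0.944 in TA and 0.975 in heart. C1ra shared 46.8% of its 51-base transcript words with its copy C1rb, and C1s1 shared 19.6% with its copy C1s2, so the split of reads between copies is uncertain. C1ra was 8.39 to 13.7 times as high as C1rb, and C1s1 13.1 to 20.7 times as high as C1s2, in every library.

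C2 (ENSMUSG00000024371, chr17:35081578-35117241, minus strand), the protease of the classical convertase, was the lowest of the 9 in every group. In TA it was at 3.10, 3.13, 3.65 and 1.89 TPM with vehicle and at 3.44, 1.90, 1.36 and 3.73 TPM with D+Q, with a log2 fold change of -0.39 (95% interval -0.86 to 0.07, limma adjusted p = 0.999). The TA groups overlapped. In heart it was at 1.56, 2.89, 1.96 and 1.77 TPM with vehicle and at 1.17, 1.56 and 1.12 TPM with D+Q. All 3 D+Q hearts lay below all 4 vehicle hearts, although the nearest values were 1.555 and 1.564 TPM. The log2 fold change was -0.55 (interval -0.94 to -0.16) and was not called (limma adjusted p = 0.163). C2 shared 35% of its transcript words with Gm20547, a gene model that overlaps it on the same strand.

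C3 (ENSMUSG00000024164, chr17:57510964-57535155, minus strand) is the protein on which all complement pathways meet. With D+Q it was called in neither tissue. In TA it was at 45.0, 38.8, 61.2 and 30.5 TPM with vehicle and at 66.4, 41.4, 33.7 and 56.6 TPM with D+Q, with a log2 fold change of -0.02 (95% interval -0.31 to 0.27). In heart it was at 105.3, 180.4, 137.1 and 102.7 TPM with vehicle and at 108.6, 153.9 and 111.2 TPM with D+Q, with a log2 fold change of -0.13 (interval -0.49 to 0.23, limma adjusted p = 0.707). Replicate 2 was the highest heart of each group. Between the tissues, C3 was 2.99-fold lower in vehicle TA than in vehicle heart (interval 2.08 to 4.29, limma adjusted p = 8.11e-05) and 2.55-fold lower in D+Q TA than in D+Q heart (interval 1.73 to 3.78, adjusted p = 0.000696). No TA library reached any heart library.

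C4b (ENSMUSG00000073418, chr17:34947354-34962912, minus strand) encodes C4, whose cleavage product tags surfaces beside C3b. In TA it was at 20.4, 14.4, 25.3 and 8.09 TPM with vehicle and at 22.7, 15.2, 12.1 and 23.3 TPM with D+Q, with a log2 fold change of -0.05 (95% interval -0.58 to 0.47). In heart it was at 35.3, 44.9, 30.6 and 33.5 TPM with vehicle and at 22.0, 29.6 and 14.9 TPM with D+Q. All 3 D+Q hearts were below all 4 vehicle hearts, and the nearest values were 29.6 and 30.6 TPM. The log2 fold change was -0.79 (SE 0.19, interval -1.24 to -0.34), a 1.72-fold lower level that did not pass the test (limma adjusted p = 0.118). The ratio of C3 to C4b was 4.93 to 7.44 in D+Q hearts and 2.98 to 4.49 in vehicle hearts. C4b shared 29.9% of its transcript words with C4a, its near-identical neighbour, so reads could be split between them. Gene models on the opposite strand overlap 7 of the 9 genes (all but C1qa and C3ar1), and without a stated strand setting their reads cannot be told apart.

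The C4b and C2 differences in heart depended on single libraries and on the covariate. Without vehicle replicate 3, C4b passed the test (log2 fold change -0.99, limma adjusted p = 0.0471). Without D+Q replicate 3, the library whose sex goes against its label, C4b was at -0.53 (adjusted p = 0.401) and C2 at -0.64 (adjusted p = 0.356). With sex read from expression in place of the label, C4b was at -0.78 and C2 at -0.70 (limma adjusted p = 0.288 and 0.236). With the atrial marker score as the covariate, C4b was at -0.37 and C2 turned to 0.39 (adjusted p = 0.873 and 0.836). That score ran with treatment at a Pearson correlation of -0.943 over the 7 hearts.

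C3ar1 (ENSMUSG00000040552, chr6:122823393-122833122, minus strand), the C3a receptor found on macrophages and other myeloid cells, went the opposite way to C3 between the tissues. In TA it was at 11.4, 10.7, 11.3 and 7.04 TPM with vehicle and at 15.3, 12.4, 7.61 and 13.0 TPM with D+Q, with a log2 fold change of 0.09 (95% interval -0.30 to 0.48). In heart it was at 2.82, 4.67, 3.07 and 2.89 TPM with vehicle and at 2.51, 3.89 and 2.38 TPM with D+Q, with a log2 fold change of -0.23 (interval -0.66 to 0.19, limma adjusted p = 0.545). The treatment groups overlapped in both tissues. C3ar1 was 2.74-fold higher in vehicle TA than in vehicle heart (interval 1.96 to 3.83, limma adjusted p = 8.08e-05) and 3.64-fold higher in D+Q TA than in D+Q heart (interval 2.54 to 5.22, adjusted p = 1.65e-05). C3 was 35.5 to 46.8 times as high as C3ar1 in the 7 hearts and 3.33 to 5.41 times as high in the 8 TA muscles.

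Counted together, 0 of the 9 genes were called with D+Q in TA, against 0% of all 16298 genes. The smallest limma adjusted p over all genes was 0.999. The TA fit thus called no gene at all, and the count says nothing particular about the 9. In TA 488 genes had an unadjusted p under 0.05, and 0 of the 9 were among them. The log2 fold changes ran from -0.39 for C2 to 0.09 for C3ar1, with 8 of 9 below 0 and a median of -0.105, against a median of -0.0717 over all genes, 33.6% of which were above 0. In 0 of the 9 did the TA groups separate, against 1.52% of all genes. These directions rest on the surrogate variable in the TA fit, a covariate estimated from the expression values. Without it C1qa, C1qb, C1qc, C3 and C4b turned to 0.02 to 0.17, and none was called. The 14 macrophage markers summed to 381.9 to 739.9 TPM in D+Q TA and to 310.9 to 557.1 TPM in vehicle TA, with 0 called. The fibroblast markers summed to 1599 to 2678 TPM against 2116 to 2887 TPM, with 0 of the 11 tested called and all 11 below 0. Their part in the TA values was not tested.

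In heart 0 of the 9 were called, against 0.316% of all 16132 genes (51 genes). All 9 log2 fold changes were below 0, with a median of -0.202, while the median of all genes was -0.00248 and 49.5% were above 0. C2 and C4b were the only ones whose groups separated, 2 of 9 against 5.57% of all genes that were lower in every D+Q heart. The same 2 were the only ones with an unadjusted p under 0.05 and a log2 fold change under -0.5, against 3.79% of all genes. Without D+Q replicate 3 all 9 were again below 0 and 0 were called. The other 7 were then at -0.10 for C1qa, -0.22 for C1qb, -0.16 for C1qc, -0.19 for C1ra, -0.22 for C1s1, -0.28 for C3 and -0.24 for C3ar1 (limma adjusted p = 0.59 to 0.816). With the atrial marker score as the covariate, 8 of the 9 turned to above 0, with C4b the exception, while the median of all genes moved to 0.292.

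**Figure D3:**
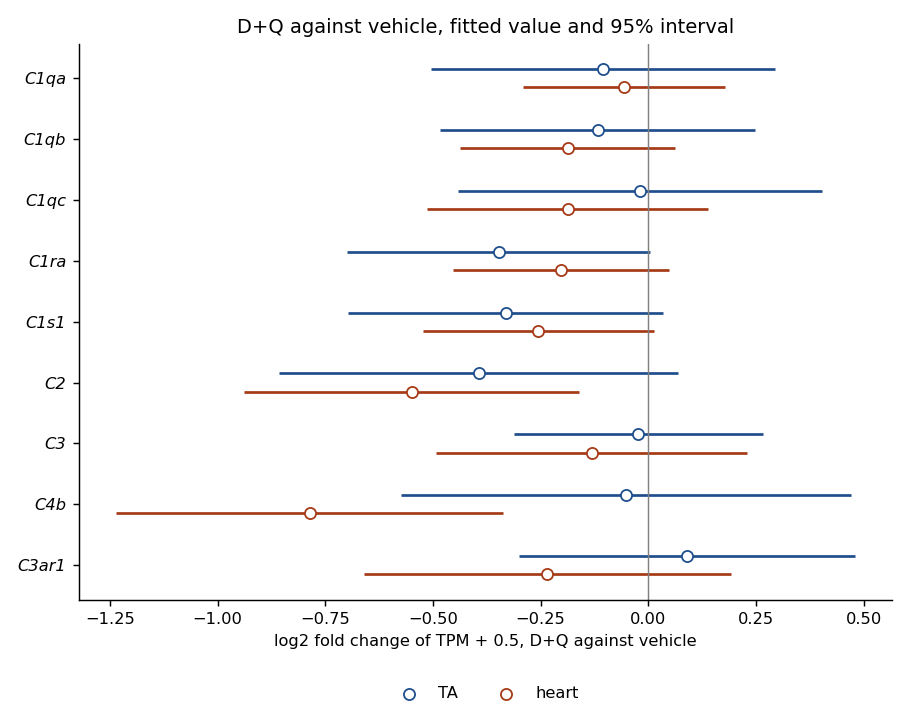
Log2 fold change of D+Q against vehicle for each complement gene (horizontal axis, TPM + 0.5) in TA (blue) and heart (red), with the 95% interval of the limma fit. Open circles mark genes that were not called, which is all of them. The heart intervals of C4b and C2 lie wholly below 0.

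The difference of the D+Q effect between TA and heart was called for 0 of the 9, against 0.0616% of all 17868 genes. This fit used group means without the surrogate variable or labelled sex, so its values need not equal the gap between the effects given above. The largest was C4b, whose effect was higher in TA by 0.89 (SE 0.45, 95% interval -0.08 to 1.86, limma adjusted p = 0.908). The heart effects of C4b and C2 are therefore not shown to differ from those in TA.

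Markers of other cell types were compared in the same hearts, and atrial muscle was the one list of those given here with called genes. All 12 fibroblast markers had log2 fold changes below 0 with D+Q, while 49.5% of all genes were above 0. Of these markers 0 were called, against 0.316% of all genes. An unadjusted p under 0.05 was found for 8 of the 12 and for 2846 of all 16132 genes. The fibroblast sum was 824.2 to 970.5 TPM in D+Q hearts against 1002 to 1456 TPM in vehicle hearts. Of the 14 macrophage markers 11 were below 0, 0 were called, and the sum was 140.9 to 225.2 TPM against 171.3 to 278.7 TPM. Of the 9 atrial markers 9 were below 0 and 4 were called lower, against 0.316% of all genes called in either direction. The 6 red cell markers summed to 26.8 to 122 TPM against 347 to 1233 TPM. The 8 ventricular and general heart muscle markers were all above 0 with 0 called. The part of these cell types in the C4b and C2 differences was not tested.

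Between the tissues, 3 of the 9 genes were called in vehicle animals, against 36.7% of all 17868 genes. C3ar1 was higher in TA (1 of 9, against 22.6% of all genes), while C3 and C4b were lower (2 of 9, against 14.1%). The same 3 were the ones whose groups separated, against 40.9% of all genes. C4b was 2.23-fold lower in vehicle TA than in vehicle heart (95% interval 1.42 to 3.52, limma adjusted p = 0.00635). The other 6, the C1q chains, C1ra, C1s1 and C2, had log2 fold changes of 0.16 to 0.43 and were not called. Without vehicle heart replicate 2, C1s1 was called as well (0.56, limma adjusted p = 0.0428).

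In D+Q animals 3 of the 9 were again called, against 37.3% of all genes. C3ar1 and C2 were higher in TA (2 of 9, against 21.4%) and C3 was lower (1 of 9, against 15.9%). C3 and C3ar1 separated fully, against 46.7% of all genes. C2 was at a log2 fold change of 0.73 (95% interval 0.13 to 1.33, limma adjusted p = 0.0474), and this call was lost without D+Q heart replicate 3 (adjusted p = 0.132) and with labelled sex as a covariate (adjusted p = 0.0807). It was also lost without D+Q TA replicate 1 or 4, or without D+Q heart replicate 1 or 2 (limma adjusted p = 0.123, 0.136, 0.121 and 0.0568). C4b was at -0.27 (interval -0.98 to 0.44, adjusted p = 0.551), and this value was not shown to differ from that in vehicle animals (interaction, limma adjusted p = 0.908). Without D+Q heart replicate 3, C3 was at -1.43, C3ar1 at 1.75 and C4b at -0.52 (limma adjusted p = 0.0023, 0.000203 and 0.293).

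**Figure D4:**
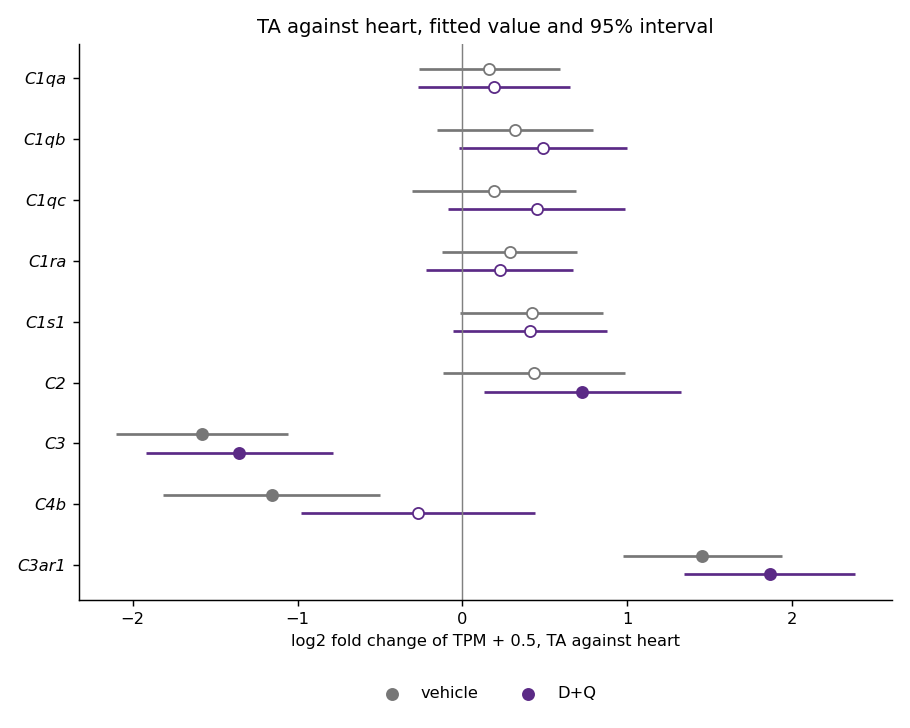
Log2 fold change of TA against heart for each complement gene (horizontal axis, TPM + 0.5) in vehicle (grey) and D+Q animals (purple), with the 95% interval of the limma fit. Filled circles were called and open circles were not. C3 lies below -1 and C3ar1 above 1 in both, and C4b is called in vehicle animals alone.

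The median of all genes was 0.159 between the vehicle groups and -0.000322 after rescaling by median-of-ratios factors. Over all genes that rescaling turned the called split from 4038 higher and 2518 lower to 2926 higher and 3288 lower in TA. The rescaled log2 fold changes in vehicle animals were -1.77 for C3, -1.34 for C4b and 1.28 for C3ar1, all still called. C1qa turned to -0.02. Of the 14 macrophage markers 8 were called higher and 1 lower in vehicle TA, against 22.6% and 14.1% of all genes. Their sum was 310.9 to 557.1 TPM against 171.3 to 278.7 TPM in vehicle heart. Of the 12 fibroblast markers 5 were called higher and 1 lower in vehicle TA, with a sum of 2116 to 2887 TPM against 1002 to 1456 TPM. In D+Q animals 9 of the 14 macrophage markers were called higher and 0 lower in TA, against 21.4% and 15.9% of all genes. Their sum was 381.9 to 739.9 TPM against 140.9 to 225.2 TPM. The part of these cells in the differences of C3, C4b, C3ar1 and C2 was not tested.

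The rest of the complement system was followed through 45 other genes, listed by role. In TA 0 of the 28 that could be tested were called with D+Q, against 0 of all 16298 genes. Only 1 had an unadjusted p under 0.05, as did 488 of all 16298 genes. It was Masp1, a protease of the lectin pathway named here after its values were seen, at a log2 fold change of -0.55. In heart 1 of the 30 tested was called, against 0.316% of all genes. C4a, the copy of C4b, was at 5.02, 6.48, 4.98 and 6.11 TPM with vehicle and at 2.75, 2.08 and 2.10 TPM with D+Q. All D+Q hearts lay below all vehicle hearts, and the log2 fold change was -1.14 (limma adjusted p = 0.037). Without D+Q replicate 3 it was -1.09 (adjusted p = 0.207), with sex read from expression -1.15 (adjusted p = 0.0825), and with the atrial score -0.84 (adjusted p = 0.708). Leaving out any 1 heart other than vehicle replicate 3 also ended the call (limma adjusted p = 0.0829 to 0.207). So did no filter on low values, a prior variance without a trend and a replicate block (limma adjusted p = 0.121, 0.0651 and 0.113). In all, 24 of the 30 had heart log2 fold changes below 0, while 49.5% of all genes were above 0, and 10 of the 30 had an unadjusted p under 0.05, as did 2846 of all 16132 genes. With the atrial marker score as the covariate 24 of the 30 were above 0, while the median of all genes moved to 0.292. Leaving out vehicle replicate 2 put 12 of the 29 then tested above 0. Hc was below the filter in every comparison.

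Between vehicle TA and vehicle heart, 9 of the 31 other complement genes tested were called higher in TA and 9 lower, against 22.6% and 14.1% of all genes. The receptor integrins Itgax and Itgb2 were higher by 3.02 and 2.16 on the log2 scale, and Cfb, the alternative pathway protease, by 1.36. The membrane regulators Cd55 and Cd59b, which protect host cells from complement, were higher by 2.68 and 0.87. Among those lower in TA were the soluble regulator Clu (-3.14), the lectin Colec11 (-3.08), the macrophage receptor Vsig4 (-1.93) and the terminal component C6 (-1.27). C6 was at 0.0387 to 0.164 TPM in vehicle TA, below the filter value, and at 0.819 to 1.19 TPM in vehicle heart. Each of these named genes kept its direction and its call after rescaling.

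In D+Q animals 10 of the 31 were called higher in TA and 7 lower, against 21.4% and 15.9% of all genes. Of the soluble regulators, Clu (-2.84) and Cfi (-0.60) were lower in TA, and Serping1 (0.68) and Vtn (0.71) were higher. Cfi was under 0.5 TPM in every D+Q library, at 0 to 0.0159 TPM in TA and 0.17 to 0.394 TPM in heart. It entered the test through vehicle hearts (0.489 to 0.944 TPM), so its value depends on the 0.5 TPM added. Serping1, the inhibitor of C1r and C1s, was at 111.4 to 188.5 TPM in D+Q TA and at 81.8 to 97.7 TPM in D+Q hearts. Itgax, Itgb2, Cd55, Cfb and Cd59b were again higher, by 3.80, 2.77, 2.64, 1.41 and 0.76 on the log2 scale. Colec11, Vsig4, C6 and the ficolin Fcna were lower, at -3.35, -1.55, -1.29 and -1.52, with C6 at 0 to 0.161 TPM in D+Q TA. All of these kept their direction and call after rescaling. Both tissue comparisons describe separate mice, and each keeps tissue, age and treatment length together.

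**Figure D5:**
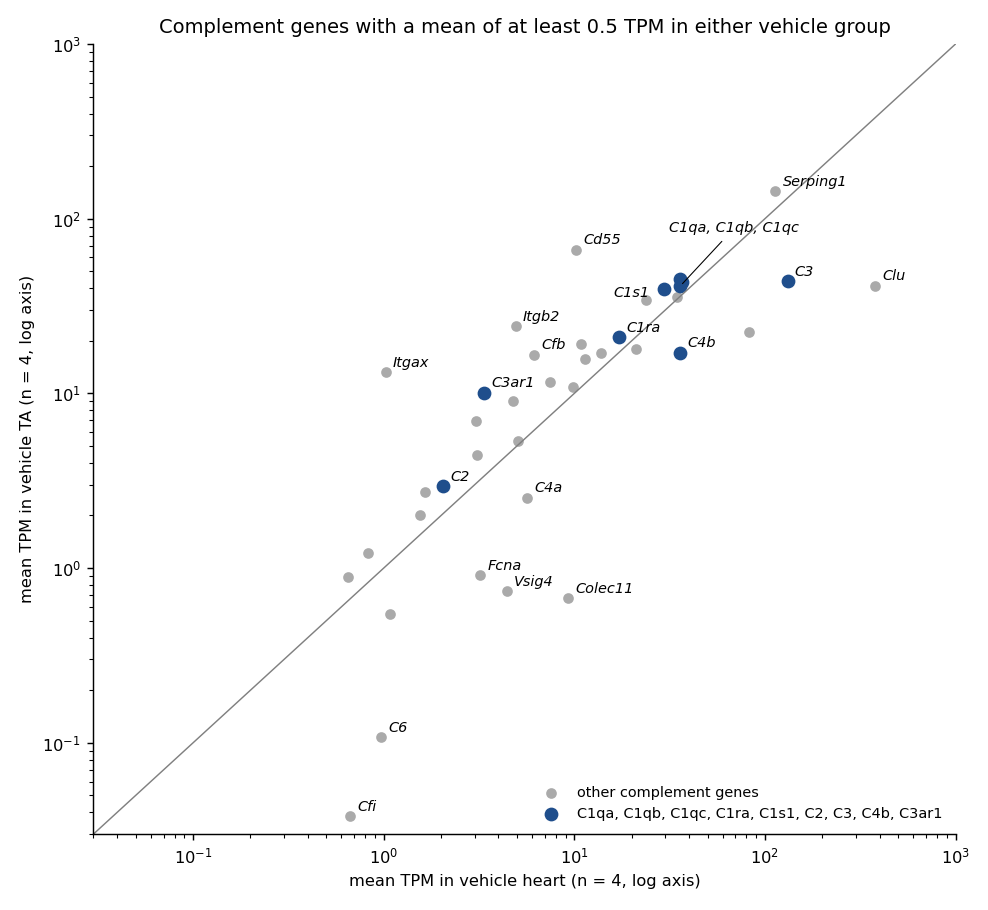
Mean TPM in vehicle TA against mean TPM in vehicle heart (n = 4 each, both axes logarithmic) for the 9 complement genes (blue) and 30 other complement genes (grey) with a mean of at least 0.5 TPM in either group. The grey line marks equal means. C3, C4b, Clu and Colec11 lie below it, and C3ar1, Cd55, Itgax and Itgb2 above it.

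Other genes were ranked by Pearson correlation of log2(TPM + 0.5) within a tissue, as a description. The targets were C3, C4b and the mean of the C1q chains. In TA the mean of the C1q chains was closest to Pop1 (0.992), Pitpna (0.981) and Hnrnph1 (0.979), and 177 of 16289 genes were above 0.9. In heart it was closest to Cers6 (0.993), Rpl34-ps1 (0.990) and Frs3 (0.989), with 135 of 16123 genes above 0.9. The genes closest to C3 were Txnrd1 (0.996), Cxcl14 (0.994) and Tgif1 (0.989) in TA, and Rpl17 (0.995), Shisa5 (0.985) and Siglec1 (0.982) in heart. Genes among the 3 closest to C4b were Plau (0.983) and Mfge8 (0.981) in TA, and Svep1 (0.988), Col1a2 (0.983) and Gm55604 (0.980) in heart. Each correlation rests on 8 or 7 libraries, and the genes named for each target in TA were other ones than in heart.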

How the data were processed

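Libraries were prepared from total RNA of TA and heart with an mRNA kit. The authors trimmed reads with Trim Galore 0.6.10, quantified them with Salmon 1.10.3 against GRCm39, summarised them with tximport and deposited TPM for 56980 genes. The annotation release and the strand setting were not given in the sources used here. Reads of DBA/2 mice were matched to a C57BL/6J reference. Symbols and positions came from GENCODE M39 (56236 identifiers matched).

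Log2(TPM + 0.5) was fitted by limma 3.58.1 (R 4.3.3; lmFit, eBayes with a trend), for every gene that reached 0.5 TPM in 3 or more libraries. The study's count test was not run, since the values are not counts. At the same thresholds the paper reported genes in both directions in TA, where this fit called none, and more in heart than here. The TA fit held 1 surrogate variable (5 rounds), the heart fit labelled sex, and tissue and interaction contrasts used 4 group means over 15 libraries. The code was run on simulated data with independent noise for each gene and known changes. Those data held no sex, atrial or library-wide differences, so the run does not cover them. The sources used here do not tie each library to its own mouse, so p-values measure the spread between these samples. No libraries were identical (r 0.977 to 0.991 within groups).

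The 9 members, the other complement genes and the marker lists were chosen with earlier results of these data known. Named were the members, at most 5 other complement genes called per comparison and direction, roles with all members called, and the 3 genes most alike, of which some items are not reported here. Words of 51 bases were counted in transcripts. Alternatives were other pseudocounts, filters, scaling, prior variance, covariates, a replicate block and leaving out each library.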

Additional observations from a re-analysis of the deposited data

Results flagged for a closer look

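C3ar1 held both unusual libraries among the 27 groups of 4 libraries checked. In vehicle TA its lowest library, replicate 4, was at 7.038 TPM and stood apart from the other 3 by a gap of 0.846 of the group's range. In vehicle heart its highest library, replicate 2, was at 4.674 TPM with a gap of 0.863 of the range. These libraries were not extreme for C3ar1 alone. Vehicle heart replicate 2 was the highest vehicle heart for every complement gene of the set. Vehicle TA replicate 4 was the lowest vehicle TA library for all of them but C1qb. Chance gives such a gap in about 1 of 20 groups, and 2 of 27 were found. The 27 groups share libraries and are not separate checks, so that rate cannot judge the count.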

How the results depend on the processing

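Of 819 recomputed log2 fold changes of the 9 genes, 742 kept their direction and call, 65 changed sign, 10 lost a call and 2 gained one. The sign changes in TA with D+Q were C1qc (0.050) and C3 (0.022) under median-of-ratios scaling, C1qa (0.022), C1qb (0.044), C1qc (0.13), C3 (0.17) and C4b (0.16) without the surrogate variable or with a replicate block in its place, and C1qb (0.038) and C1qc (0.082) with labelled sex or in males alone. In heart, the atrial score gave C1qa 0.83, C1qb 0.78, C1qc 0.83, C1ra 0.38, C1s1 0.47, C2 0.39, C3 1.01 and C3ar1 0.58. Between vehicle tissues, C1qa was at -0.024 under median-of-ratios scaling. For the difference of effects, C1ra and C1s1 were at 0.015 and 0.066 under that scaling and at 0.069 and 0.17 with labelled sex, and C1s1 at 0.017 with a replicate block. The cause of these changes was not tested.

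Leaving out 1 library at a time in TA gave C1qa -0.20 to 0.042, C1qb -0.22 to -0.00205, C1qc -0.12 to 0.15, C3 -0.093 to 0.084, C4b -0.29 to 0.11 and C3ar1 -0.017 to 0.16. In heart it gave C1qa -0.14 to 0.046, C3 -0.28 to 0.032 and 0 to 1 of the 9 called. For the difference of effects it gave C1qa -0.13 to 0.16, C1ra -0.21 to 0.070 and C1s1 -0.21 to 0.14. The higher C2 level in D+Q TA also lost its call with a pseudocount of 1 (adjusted p = 0.0513), no filter (0.0929), a fit on the D+Q libraries alone (0.089) and a replicate block (0.0765, log2 fold change 0.74).

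Same-numbered libraries did not deviate together (mean correlation -0.122 over 4 pairs in TA and 0.004 over 3 pairs in heart). So few pairs cannot settle whether the numbers pair the libraries. With the replicate block 0 of the 9 were called in TA, 0 in heart, 3 between vehicle tissues and 2 between D+Q tissues. Over all genes the block called 0 of 16298 in TA and 4 of 16132 in heart. Of all 17868 genes it called 3987 higher and 2489 lower in vehicle TA, and 3843 higher and 2718 lower in D+Q TA. Over all genes the heart calls ranged from 0 to 136 across alternatives. TPM gives no read depth, which leaves the precision of C2, the lowest member, unknown.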
